A study of Mus musculus with 4 samples.

Results

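The genes described here are 35 mouse genes of the ATF4 and endoplasmic reticulum (ER) stress responses, out of 24116 genes in a table of RNA-seq read counts from mouse embryonic stem cells. They were taken from a written list of gene symbols, matched to the table through the Entrez gene numbers, and all 35 were found. The list covers transcription factors of the response, amino acid synthesis and uptake genes that ATF4 is known to act on, the ER stress sensors, and ER chaperones. For the account below they form an ATF4 arm of 21 genes and an ER arm of 14 genes, split into 7 role groups.

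ATF4 is a transcription factor whose mRNA is translated when the initiation factor eIF2 is phosphorylated, which happens when amino acids run short or unfolded protein builds up in the ER. It raises transcription of genes for making, importing and charging amino acids, and of factors such as DDIT3 (also called CHOP) and TRIB3 that act later in the response. The unfolded protein response of the ER uses the sensors PERK, IRE1 and ATF6: PERK phosphorylates eIF2 and so feeds ATF4, while IRE1, through splicing of Xbp1 mRNA, and ATF6 raise ER chaperones. A count per gene shows neither the translation of Atf4 mRNA, nor the splicing of Xbp1, nor the cleavage of ATF6.

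The study compared 2 libraries labelled Kdm2a knockout with 2 labelled wild type. Kdm2a encodes a histone demethylase that removes methyl groups from lysine 36 of histone H3. Per the labels, the knockout cells were transfected with a guide RNA against Kdm2a, GFP-positive cells were sorted, and a line was grown from a single clone, so line and genotype cannot be told apart. The same transfection text stands on the wild-type samples, whose own handling is not given apart from it. All 4 samples carry the strain label 12910la and were grown on gelatin in medium with serum and LIF, the cytokine that keeps stem cells undifferentiated. The titles say knockout and the genotype field of the same samples says knocked down. The labels do not say whether replicates are separate cultures, and the p-values below rest on a spread that may be technical.

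The libraries held 19056529 and 18872382 counts in those labelled knockout, against 19005131 and 18844246 in wild type. Kdm2a itself had 3710 and 4753 counts in the libraries labelled knockout and 2899 and 3554 in wild type, a log2 fold change of 0.44 (SE 0.24, edgeR quasi-likelihood test with Benjamini-Hochberg adjustment, adjusted p = 1.00). Its RNA was therefore not lower under the knockout label. A guide-induced deletion can leave RNA in place, so the count checks the labels only in part. Across all genes tested, the log2 levels of the library labelled knockout 1 correlated at r = 0.984 and 0.978 with the wild-type libraries and at 0.952 with knockout 2. Knockout 2 correlated at 0.938 and 0.959 with wild type 1 and 2, which correlated at 0.968 with each other, so knockout 2 stood farthest from the rest; Vldlr, Atf5, Chac1, Psph and Pycr1 below are genes in which it was the extreme library. All 9 embryonic stem cell markers were above 3 counts in every library, with a summed level of 6695 and 5039 CPM (counts scaled, for these marker sums alone, to the library totals) in those labelled knockout and 6384 and 6268 CPM in wild type. The fibroblast list summed to 36.7 and 19.3 CPM in the libraries labelled knockout, against 45.8 and 21.2 CPM in wild type, with Postn, Lum and Dcn at 3 counts or fewer in all 4. The neural list, with all 4 genes above 3 counts in every library, summed to 150 and 120 CPM in the libraries labelled knockout. In wild type it summed to 104 and 122 CPM. The endoderm, mesoderm and trophoblast lists summed to 6.82, 11.0 and 1.05 CPM in knockout 1 and 10.8, 26.4 and 1.22 CPM in knockout 2. They summed to 10.6, 13.9 and 3.47 CPM in wild type 1 and 3.40, 17.8 and 1.70 CPM in wild type 2.

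The promoters of the members are shown for a sequence feature that differs between the arms. The arms were formed from known genes of these pathways, and the motifs are known elements of the same pathways. The difference is therefore not independent of how the list was written. RefSeq promoter windows (build GRCm38.p6, 250 bases before to 50 after the annotated start) were at hand for 32 members. Both strands were searched for 3 motifs: the ER stress response element, ERSE, spelled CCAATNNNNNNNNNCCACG, the related ERSE-II, spelled ATTGGNCCACG, and the C/EBP-ATF element, spelled TGATGNAA, to which ATF4 dimers are known to bind. ERSE is known as an element through which ATF6 and XBP1 act on chaperone genes. Each sequence below is written 5′ to 3′ on the gene's strand, with the motif in capitals, and a motif on the other strand reads as its reverse complement.
Hspa5 (chr2:34772005-34772063, + strand, ERSE): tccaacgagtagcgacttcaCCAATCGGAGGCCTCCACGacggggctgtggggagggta
Calr (chr8:84847055-84847113, - strand, ERSE on the other strand): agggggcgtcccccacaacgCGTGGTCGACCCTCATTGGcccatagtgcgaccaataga
Hsp90b1 (chr10:86705618-86705676, - strand, ERSE): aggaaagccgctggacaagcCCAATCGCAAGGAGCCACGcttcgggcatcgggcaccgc
Canx (chr11:50325780-50325838, - strand, ERSE): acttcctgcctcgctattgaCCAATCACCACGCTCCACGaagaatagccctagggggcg
Pdia6 (chr12:17266471-17266529, + strand, ERSE): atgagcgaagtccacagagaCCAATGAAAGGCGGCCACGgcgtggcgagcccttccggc
Herpud1 (chr8:94386357-94386407, + strand, ERSE-II): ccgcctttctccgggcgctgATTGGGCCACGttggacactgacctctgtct
Asns (chr6:7693210-7693252, - strand, C/EBP-ATF element): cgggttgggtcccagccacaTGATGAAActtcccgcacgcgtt
Chac1 (chr2:119351029-119351076, + strand, C/EBP-ATF element on the other strand): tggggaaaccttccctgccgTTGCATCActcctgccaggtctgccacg
Pycr1 (chr11:120643824-120643871, - strand, C/EBP-ATF element): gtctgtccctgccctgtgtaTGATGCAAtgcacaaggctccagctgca
Vldlr (chr19:27216800-27216847, + strand, C/EBP-ATF element on the other strand): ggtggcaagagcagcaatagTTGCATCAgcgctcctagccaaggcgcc

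ERSE stood in 5 of the 13 ER arm promoters and in 0 of the 19 ATF4 arm promoters, and in 0.137% of all 27025 genes with a promoter window. The 5 holders were Hspa5, Calr, Hsp90b1, Canx and Pdia6, and Hsp90b1 held it at 2 positions. ERSE-II was in the Herpud1 promoter and in 0.0444% of all genes. The C/EBP-ATF element was in 7 of 19 ATF4 arm promoters and 1 of 13 in the ER arm, against 4.51% of all genes; the holders were Atf3, Chac1, Trib3, Vldlr, Asns, Pycr1, Slc7a11 and, in the ER arm, Herpud1. A match describes the letters of the window and is not a mapped binding site, and the absence of one says only that these letters are not in this window.

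No member passed the test of the knockout label against wild type, and the fold changes were centred near 0. Of the 35 members, 34 had enough reads to be tested, 17 with a fold change above 0 and 17 below, and their median log2 fold change was 0.01, against 0.00289 over all 14194 genes tested. Fold changes are those labelled knockout over wild type. The edgeR quasi-likelihood test called 0 members at an adjusted p under 0.05, and it called 0 genes in the whole table, which is 0% (adjusted p = 1.00 for each tested member). At an unadjusted p under 0.05 there were 0 members and 242 genes, or 1.7% of those tested. DESeq2, the edgeR likelihood ratio test and limma-voom also called 0 members, while they called 2, 4 and 0 genes over the whole table.

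The groups overlapped for 31 of the 34 tested members. Atf5 and Shmt2 were higher in both libraries labelled knockout than in both wild-type ones, and Hspa5 was lower in both. Over all genes tested, 11.7% were separated upward and 12.7% downward, 24.4% in all, so the members' 3 of 34 is a smaller share than the background. For each of the 34 members, the gap between the 2 libraries of at least 1 group was larger than the gap between the group means, which held for 86.9% of all genes.

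The precision was uneven. The 95% interval of the fold change lay within a 2-fold change either way for 19 of the 34 members (55.9%, against 45.3% of all genes). That was so for 10 of the 14 ER arm genes and for 9 of the 20 tested ATF4 arm genes. For the remaining members a change beyond 2-fold is not excluded by the interval.

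**Figure D1:**
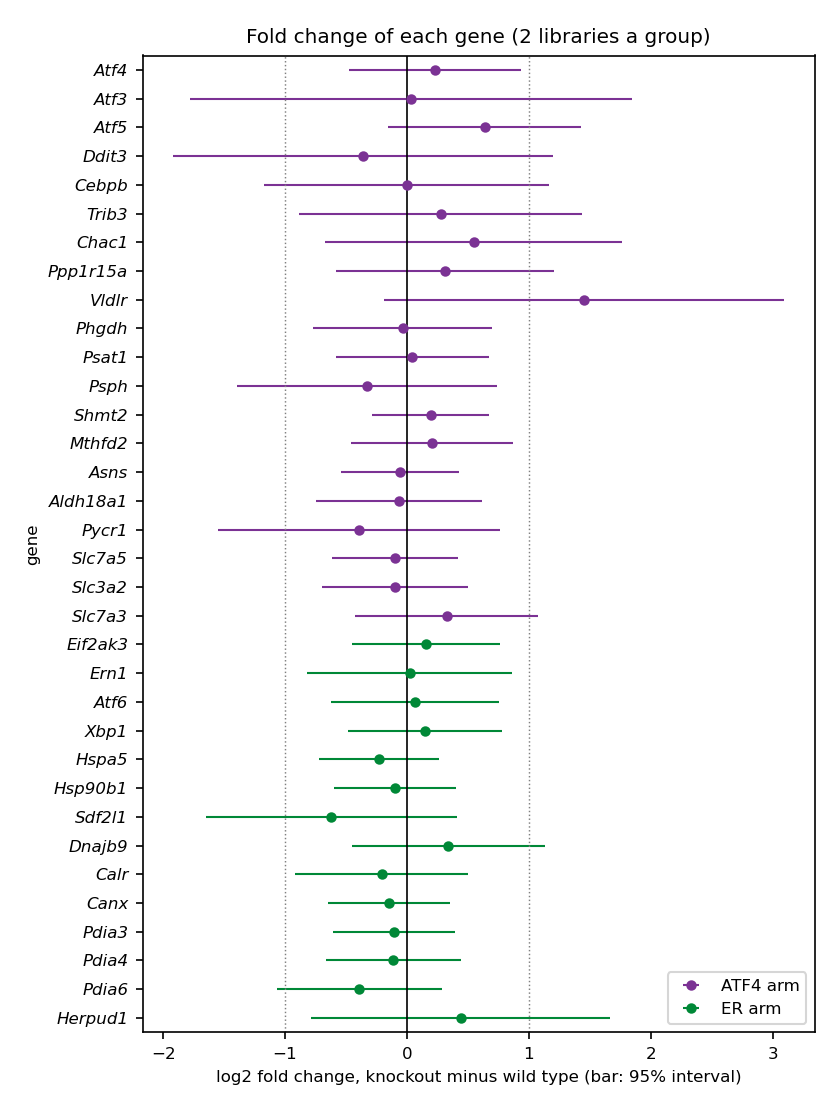
Log2 fold change of each tested member, libraries labelled knockout over wild type, with its 95% interval from the edgeR quasi-likelihood fit (2 libraries a group), ordered by role group. Every interval crosses 0, and the widest belong to Atf3, Vldlr and Ddit3.

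The transcription factors of the response gave 3 fold changes above 0 and 2 below, of which those of Atf3 and Cebpb were so close to 0 that another scaling turned their sign. Atf4 had 1716 and 2711 counts in the libraries labelled knockout and 2151 and 1752 in wild type, which is 119 ± 41.99 CPM under the knockout label against 102 ± 15.2 CPM in wild type (SD, n = 2 each). The library labelled knockout 2 was the highest and knockout 1 the lowest, so the wild-type libraries lay between them, and the log2 fold change was 0.23 (SE 0.30, 95% interval -0.47 to 0.94). It was -0.18 without knockout 2 and 0.55 without knockout 1, so its sign depended on knockout 2. Since ATF4 is mainly set by translation, its mRNA is a partial readout of the pathway.

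Atf5, a related factor that is likewise controlled by translation under stress, had 683 and 1180 counts in the libraries labelled knockout, against 637 and 605 in wild type. Both libraries labelled knockout were above both wild-type ones, at 50.3 ± 20.6 CPM under the knockout label against 32.3 ± 1.35 CPM in wild type (SD, n = 2 each). The log2 fold change was 0.64 (SE 0.33, 95% interval -0.15 to 1.43), and its size rested mostly on knockout 2, since it was 0.15 without that library. The separation was narrow, with knockout 1 at 35.7 CPM and wild type 1 at 33.3 CPM. Atf5 shares 82 of its 1993 exon bases with genes on the other strand, Nup62 and Il4i1, and the strand setting of the counting is not given in the sources used here.

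Ddit3, which promotes cell death when stress is prolonged, had 146 and 262 counts in the libraries labelled knockout and 432 and 110 in wild type. The highest and the lowest library were both wild type, 3.96-fold apart, with those labelled knockout between them. The log2 fold change was -0.36 (SE 0.66), 0.95 without wild type 1 and -1.03 without wild type 2, so its sign depended on which wild-type library was kept. Ddit3 shares 68 of its 1713 exon bases with Mars1 on the other strand. Atf3, an immediate stress factor, was near the limit of detection at 20 and 12 counts in the libraries labelled knockout, against 24 and 8 in wild type. Cebpb, a dimer partner of ATF4, had 52 and 67 counts under the knockout label and 58 and 65 in wild type, and the groups overlapped. It shares 312 of its 1504 exon bases with Tmem189 on the other strand.

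The feedback and effector genes of the ATF4 arm had their highest median in a single library. All 4 had fold changes above 0, with a median of 0.43 on the log2 scale, and none passed the test. Their median deviation from the mean of the 4 libraries was -0.29 and 0.66 in those labelled knockout 1 and 2, against -0.13 and -0.60 in wild type 1 and 2. Knockout 2 was thus the high library and wild type 2 the low one, while knockout 1 stood near wild type 1.

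Vldlr, a lipoprotein receptor gene induced through ATF4, gave the largest fold change of the members and their lowest unadjusted p, 0.0751. It had 81 and 279 counts in the libraries labelled knockout, against 92 and 45 in wild type. Knockout 1 lay between the wild-type libraries, and knockout 2 was 3.62-fold above knockout 1. The log2 fold change of 1.45 (SE 0.69, 95% interval -0.19 to 3.10) was 0.25 without knockout 2 and 2.10 without knockout 1. Its promoter holds the C/EBP-ATF element printed above.

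Ppp1r15a, also called GADD34, brings a phosphatase to eIF2 and so ends the response. Its counts were 614 and 1080 in the libraries labelled knockout and 551 and 868 in wild type, and the groups overlapped (log2 fold change 0.31, SE 0.38). Chac1, a glutathione-degrading enzyme, had 71 and 139 counts under the knockout label, against 78 and 71 in wild type, and only knockout 2 stood above the others. Trib3, a pseudokinase that restrains ATF4, had 282 and 339 counts under the knockout label and 381 and 147 in wild type, a 2.61-fold gap within the wild-type pair. Chac1 and Trib3 were chosen for mention after their values were seen.

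The serine and one-carbon genes gave 3 fold changes above 0 and 2 below, with a median of 0.05. Psat1, the transaminase of serine synthesis, had 8243 and 5370 counts in the libraries labelled knockout and 7659 and 5850 in wild type. Each group held 1 high and 1 low library, and the log2 fold change was 0.05 (SE 0.26). Shmt2, the mitochondrial enzyme that splits serine into glycine and a one-carbon unit, had 6512 and 7114 counts under the knockout label and 6290 and 5979 in wild type. The groups did not overlap, at 340.3 and 391 CPM under the knockout label against 329 and 310.02 CPM in wild type, and the log2 fold change was 0.20 (SE 0.20, 95% interval -0.28 to 0.68).

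The library labelled knockout 1 was the highest for 4 of these 5 genes, which runs against the feedback genes. Their median log2 difference of knockout 2 from knockout 1 was -0.54, whereas it was 0.95 for the feedback genes. Phgdh, the first enzyme of serine synthesis, had 4116 and 2177 counts under the knockout label, against 3579 and 3010 in wild type. Psph, the last enzyme, had 669 and 243 counts under the knockout label, against 610 and 554 in wild type, so knockout 2 alone was low. Both were picked out after their values were seen; 452 of the 4329 exon bases of Psph are shared with Cct6a, and RefSeq lists a pseudogene of Phgdh, so reads at either could be split.

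The genes of asparagine and proline synthesis had 0 fold changes above 0 and 3 below, with a median of -0.07. Asns, the asparagine synthetase and a classical ATF4 target, was strongly expressed and close in all libraries, with 9035 and 7795 counts in those labelled knockout and 9697 and 8320 in wild type. Its log2 fold change was -0.06 (SE 0.20, 95% interval -0.54 to 0.43). Pycr1, the last enzyme of proline synthesis, had 817 and 278 counts under the knockout label, against 880 and 583 in wild type. Knockout 2 was again the low library while knockout 1 lay between the wild-type ones, and the log2 fold change was -0.39 (SE 0.49). Aldh18a1, the first enzyme of that route, had 1970 and 1385 counts under the knockout label, against 2142 and 1456 in wild type, with a high and a low library in each pair.

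**Figure D2:**
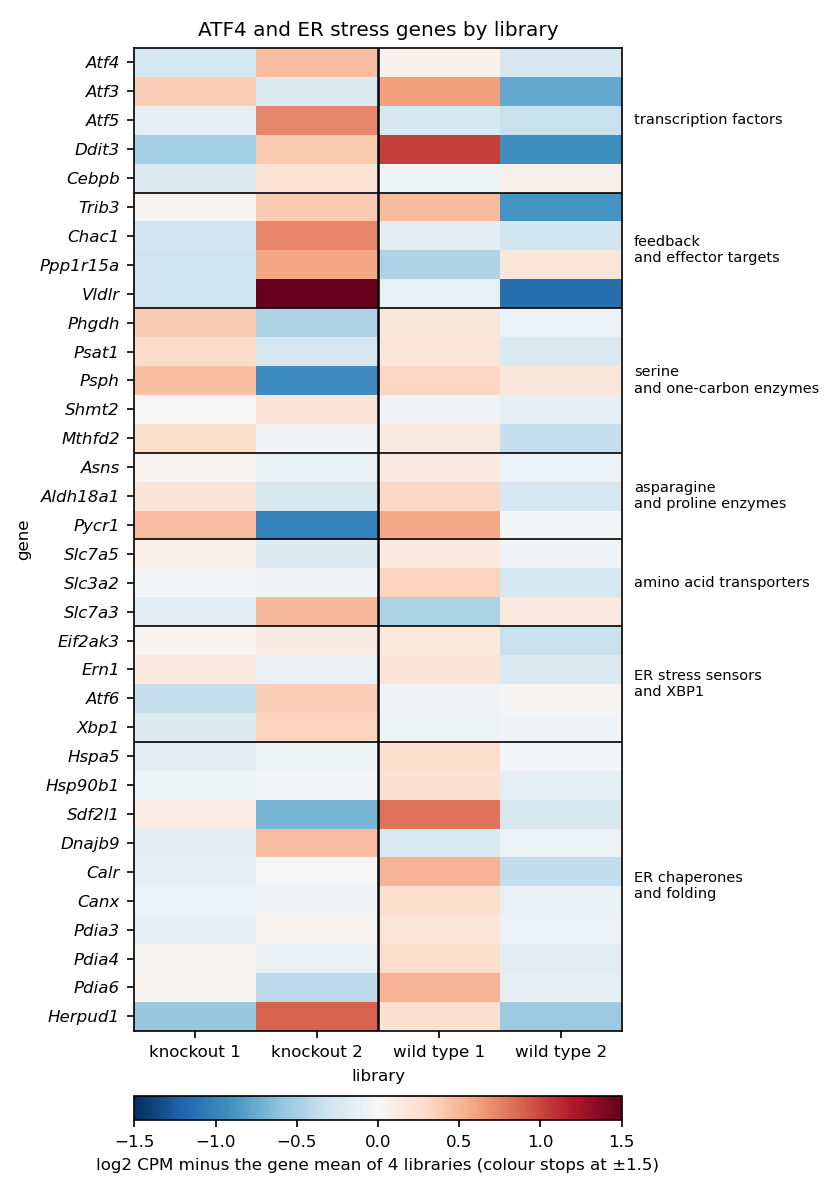
Heat map of each tested member's log2 CPM minus its mean over the 4 libraries, with the libraries labelled knockout at left and wild type at right, and genes ordered by role group. Of the 4 feedback genes, 3 are highest in knockout 2 and Trib3 in wild type 1; the serine genes are mostly highest in knockout 1, and the ER chaperones mostly in wild type 1.

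Of the amino acid transporters, 3 were tested, with 1 fold change above 0 and 2 below. Slc7a5, which with Slc3a2 forms the importer of large neutral amino acids, had 5421 and 4155 counts in the libraries labelled knockout and 5565 and 4937 in wild type (log2 fold change -0.10, SE 0.22). Slc3a2, the heavy chain, had 4903 and 4576 counts under the knockout label, against 6253 and 4170 in wild type, and wild type 1 alone stood above the others. Slc7a3, an arginine and lysine importer, had 1913 and 2838 counts under the knockout label and 1536 and 2385 in wild type (log2 fold change 0.33, SE 0.32). Slc7a11, the cystine importer, had 6 and 6 counts under the knockout label and 3 and 3 in wild type, too few for the test, although its promoter window holds the C/EBP-ATF element at 2 positions.

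The ER stress sensors and Xbp1 gave 4 fold changes above 0 and 0 below, with a median of 0.11, and all 4 overlapped between groups; Ern1, at 0.02, turned below 0 when scaled by library totals or the upper quartile. Eif2ak3, which encodes PERK, had 1293 and 1304 counts in the libraries labelled knockout, against 1396 and 1003 in wild type, with the highest and the lowest library both wild type (log2 fold change 0.16, SE 0.26). Xbp1 had 1067 and 1495 counts under the knockout label and 1179 and 1214 in wild type, with the wild-type pair close together and inside the span of the other pair. Atf6 followed the same order as Xbp1, at 973 and 1518 counts under the knockout label and 1198 and 1266 in wild type. Ern1, which encodes IRE1, had 272 and 217 counts under the knockout label and 281 and 213 in wild type.

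The ER chaperones and related ER stress targets mostly had fold changes below 0, and wild type 1 was their high library. Of these 10 genes, 2 had fold changes above 0 and 8 below, with a median of -0.13, and none passed the test. Wild type 1 was the highest library for 8 of the 10, against 29.6% of all genes. Without it the fold changes of Hsp90b1, Sdf2l1, Calr, Canx, Pdia3 and Pdia4 turned above 0. Hspa5, the chaperone BiP that holds the sensors inactive, had 7081 and 7235 counts in the libraries labelled knockout and 9468 and 7829 in wild type.

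Hspa5 was the only member with both libraries labelled knockout below both wild-type ones, at 384 ± 19.7 CPM under the knockout label against 450.3 ± 62.8 CPM in wild type (SD, n = 2 each). Knockout 2, at 398 CPM, was close to wild type 2, at 406 CPM, so the separation was narrow. The log2 fold change was -0.23 (SE 0.21, 95% interval -0.72 to 0.26), and it was -0.08 without wild type 1. In bulk libraries such as these, fewer cells of a type and less RNA per cell cannot be told apart.

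Calr, the calcium-binding lectin chaperone, had 14796 and 15418 counts in the libraries labelled knockout and 23168 and 12730 in wild type. Wild type 1 was 1.83-fold above wild type 2, and those labelled knockout lay between them, near each other. The log2 fold change of -0.21 (SE 0.30) became 0.30 without wild type 1. Canx, its membrane-bound relative, had 12422 and 12222 counts under the knockout label and 15730 and 12372 in wild type. Hsp90b1, the ER form of HSP90, had 13654 and 13322 counts under the knockout label and 16663 and 13041 in wild type. In both genes wild type 1 alone was high.

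Sdf2l1, a cofactor of the BiP system, had 636 and 346 counts in the libraries labelled knockout and 1038 and 502 in wild type. Each pair held a high and a low library, and the log2 fold change of -0.62 (SE 0.43, 95% interval -1.65 to 0.41) became 0.01 without wild type 1. The protein disulfide isomerases Pdia3, Pdia4 and Pdia6, which form disulfide bonds in new proteins, had log2 fold changes of -0.11, -0.11 and -0.39. Pdia6 had 4989 and 3558 counts under the knockout label, against 7013 and 4456 in wild type, and its fold change was -0.02 without wild type 1 and -0.67 without wild type 2. Herpud1, an ER membrane protein of degradation, differed from the chaperones: it had 246 and 639 counts under the knockout label and 427 and 251 in wild type, so knockout 2 was 2.73-fold above knockout 1. Dnajb9, a BiP cochaperone, had 338 and 494 counts under the knockout label, against 322 and 358 in wild type, with knockout 2 again the highest. Herpud1 was picked out after its values were seen.

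The ERSE-holding genes printed above were set beside the rest of their arm. All 5 were highest in wild type 1, against 29.6% of all genes, and all 5 had a fold change below 0, with a median of -0.21. Without wild type 1, log2 fold changes were 0.30 for Calr, 0.04 for Canx and 0.10 for Hsp90b1. They were -0.08 for Hspa5 and -0.02 for Pdia6. The 9 other ER arm genes, Atf6 with no window among them, gave 6 above 0 and 3 below, with a median of 0.07. Those above 0 were the sensors and Xbp1, Dnajb9, and Herpud1, which holds ERSE-II. The 3 below were the chaperone-group genes Sdf2l1, Pdia3 and Pdia4, so the split also followed the role groups. A high wild type 1 was not limited to the holders: it was the highest library for 5 of those 9 (55.6%), Sdf2l1, Pdia3 and Pdia4 among them. Median deviations of the 5 holders were -0.09 and -0.04 in the libraries labelled knockout, against 0.25 and -0.14 in wild type 1 and 2. Among the 7 tested holders of the C/EBP-ATF element, 5 had a fold change above 0. All 7 were higher in wild type 1 than in wild type 2, against 52.5% of all genes. The same held for 11 of the 14 ATF4 arm genes without a match (78.6%), a set that includes Slc7a3 and Slc7a5 for want of a window. The 5 holders are also abundant chaperone genes, and no test of the element was made.

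Within the wild-type pair the members differed more often in one direction than all genes did. Wild type 1 exceeded wild type 2 for 28 of 34 tested members (82.4%, against 52.5% of all genes), with a median log2 difference of 0.36, against 0.03 over all genes. It was the highest of the 4 libraries for 18 members (52.9%, against 29.6% of all genes), and wild type 2 was the highest for 0 members (0%, against 19.8%). Both arms took part, with median differences of 0.28 in the ATF4 arm and 0.39 in the ER arm. The direction was not particular to the members. In the companion lists below, wild type 1 exceeded wild type 2 for 89.5% of other ATF4 targets and 80% of cytosolic tRNA synthetases. The share was 75% for other ER folding and import genes and 62.5% for ER-associated degradation. It was 55.6% for mitochondrial chaperones and proteases, 20% for NRF2 targets and 16.7% for the eIF2 genes. Within the pair labelled knockout, knockout 2 exceeded knockout 1 for 20 of 34 members (58.8%, against 50.0% of all genes). With 1 library on each side these are descriptions of the libraries.

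**Figure D3:**
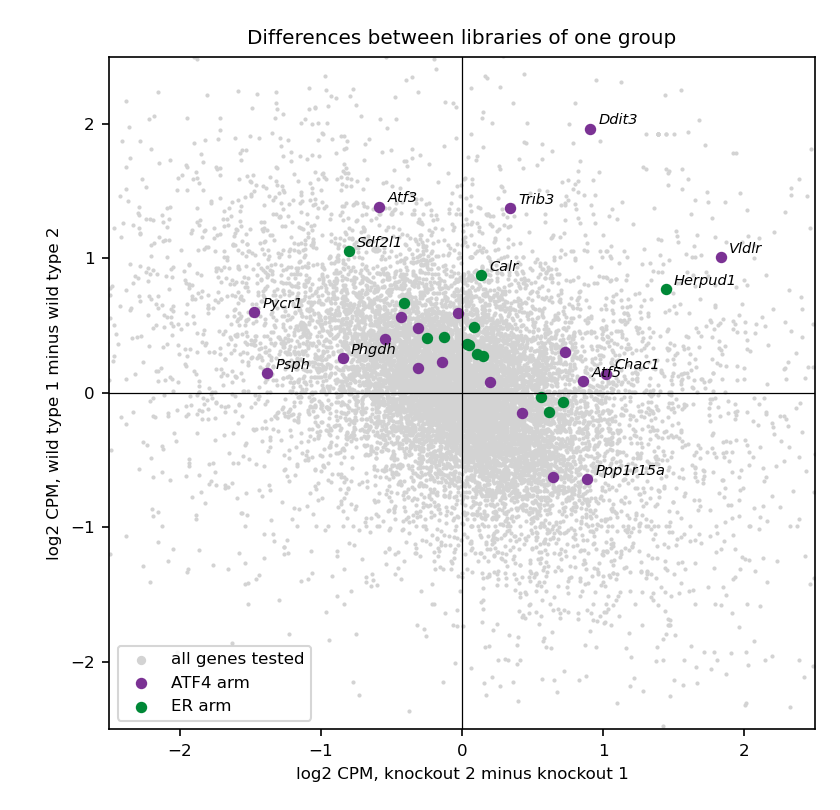
Log2 difference within each group for every tested gene (grey) and the members (coloured by arm), knockout 2 minus knockout 1 on one axis and wild type 1 minus wild type 2 on the other; genes beyond 2.5 on either axis are not drawn. Most members lie on the side where wild type 1 is higher, and they spread to both sides of 0 for the pair labelled knockout.

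Read apart, the arms had median log2 fold changes of 0.04 for the 20 tested ATF4 genes and -0.10 for the 14 ER genes. Neither sign was stable to the choice of wild-type library. Without wild type 1 the medians were 0.24 for the ATF4 arm and 0.10 for the ER arm, and without wild type 2 they were -0.14 and -0.24. By library, the ATF4 arm's median deviation was 0.02 and 0.08 in those labelled knockout, against 0.14 and -0.23 in wild type 1 and 2. The ER arm's was -0.11 and -0.01 under the knockout label, against 0.23 and -0.14 in wild type.

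The gap between the arms had one sign in both libraries labelled knockout and the other in both wild-type ones. The ATF4 arm's median deviation exceeded that of the ER arm by 0.13 and 0.09 in the libraries labelled knockout. The same difference was -0.08 and -0.09 in wild type. Deviations are taken from each gene's own mean over the 4 libraries and so sum to 0. An opposite sign in the other pair is thus largely set by this centring, and the difference between the arms was not tested. Within the ATF4 arm the role groups had medians on both sides of 0, such as 0.43 for the feedback genes and -0.10 for the transporters, and no member of either passed the test. As a share of all counts, the ER arm took 0.351% and 0.354% under the knockout label and 0.469% and 0.341% in wild type. The ATF4 arm took 0.2535% and 0.227% under the knockout label and 0.261% and 0.221% in wild type.

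**Figure D4:**
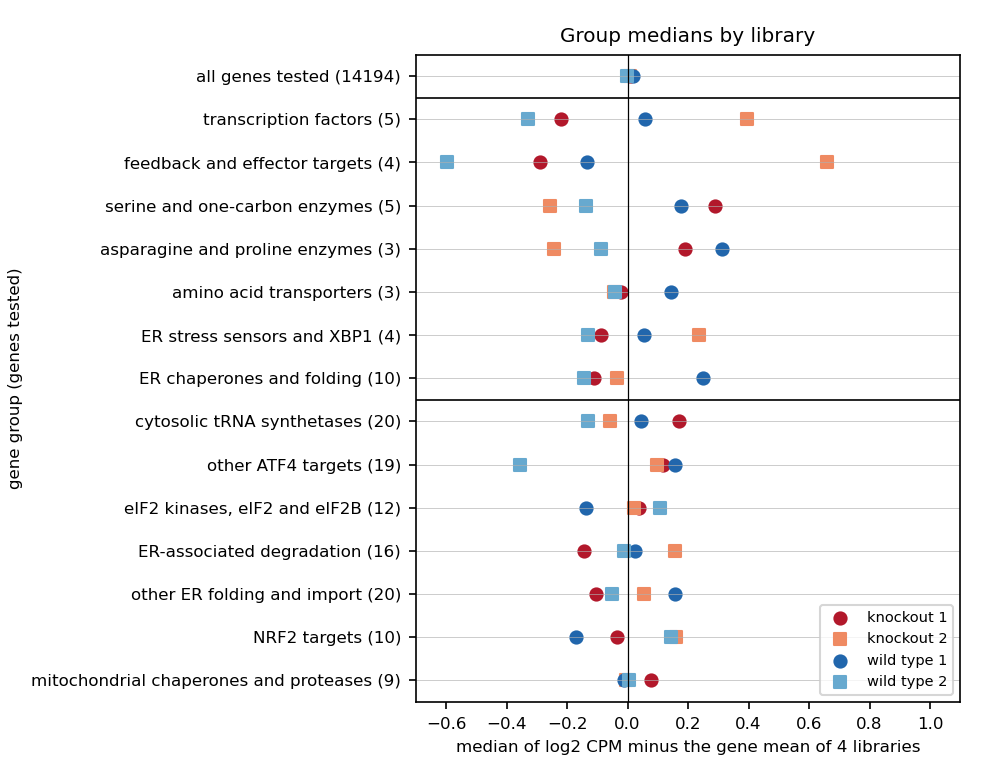
Median log2 CPM minus the gene mean, per library, for each role group and companion list; points stand for libraries, those labelled knockout first in the legend. The feedback genes span the widest range, from -0.60 in wild type 2 to 0.66 in knockout 2, and the ER chaperones are highest in wild type 1 at 0.25.

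Levels between genes were compared as CPM per kilobase of exon, with exon lengths from GENCODE M21. Calr was the highest at 303 CPM per kilobase over the 4 libraries, followed by Hsp90b1 at 186, Asns at 168 and Canx at 148. The lowest of the tested members were Ern1 at 1.59, Vldlr at 0.663 and Atf3 at 0.392. In this order of 34 genes, 30 of the 33 neighbouring pairs overlapped over their libraries, and the 3 that did not were Calr above Hsp90b1, Canx above Shmt2 and Cebpb above Ern1. By mean level the amino acid genes stood on both sides of Atf4 itself, at 46.9. Asns and Shmt2, at 168 and 110, lay above it, as did Psat1, Slc3a2, Slc7a5 and Phgdh. Slc7a3 at 30.4, Aldh18a1 at 22.5, Mthfd2 at 13.2, Pycr1 at 8.53 and Psph at 6.29 lay below it.

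**Figure D5:**
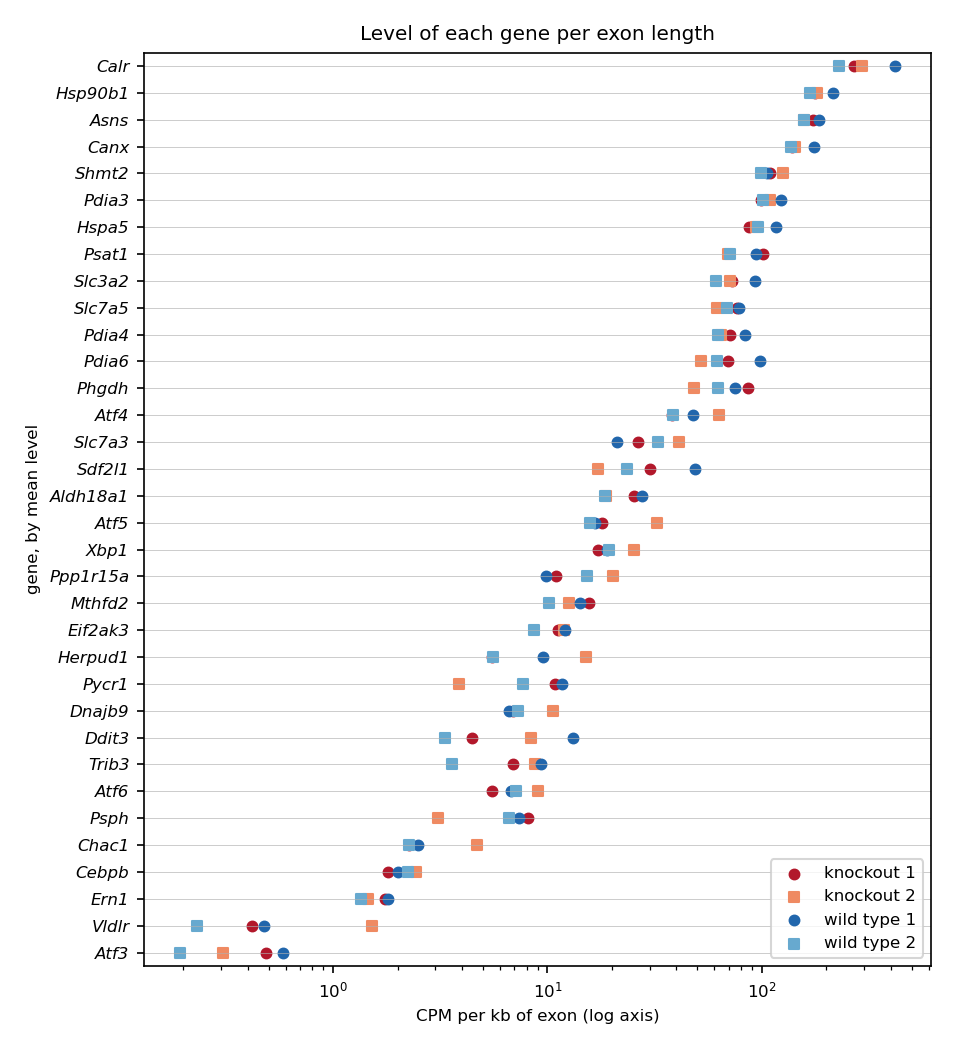
Level of each tested member in each library as CPM per kilobase of exon (log axis), ordered by mean level, with libraries labelled knockout and wild type marked apart. Calr is at the top, at 303, and Ern1, Vldlr and Atf3 are at the bottom, to 0.392 for Atf3. Genes of the ER chaperone group and of amino acid synthesis stand high and also lower down, such as Herpud1 at 8.93 and Psph at 6.29.

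Genes of the same pathways outside the list were read from 7 companion lists of 108 genes, of which the test called 0. The 20 cytosolic tRNA synthetases, which charge tRNAs and include known ATF4 targets, gave 17 fold changes above 0 and 3 below, with a median of 0.11, and 5 were separated upward, against 11.7% of all genes. The library labelled knockout 1 was the highest for 15 of the 20 (75.0%, against 16.9% of all genes), and the median log2 difference of knockout 2 from knockout 1 was -0.21. Sars, the serine enzyme, had 5249 and 5385 counts in the libraries labelled knockout, against 4564 and 3814 in wild type (log2 fold change 0.39, SE 0.21). Vars, the valine enzyme and the most abundant, had 585 and 496 CPM under the knockout label and 579.5 and 520.4 CPM in wild type, with overlap. Other ATF4 targets gave 15 above 0 and 4 below among 19 tested, with a median of 0.10 and 1 separated upward.

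Stc2, a secreted glycoprotein induced in ER stress, had 146 and 885 counts in the libraries labelled knockout, against 171 and 137 in wild type. Knockout 2 alone was high, 6.38-fold above knockout 1, which is the order seen for Vldlr, and the log2 fold change was 1.81 (SE 0.77). Slc38a2, the neutral amino acid transporter SNAT2, had 8939 and 17958 counts under the knockout label and 7060 and 10789 in wild type.

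Of the other ER folding and import genes, 5 of 20 had a fold change above 0 and 15 below, with a median of -0.05; 5 were separated downward, against 12.7% of all genes, and 1 upward. Sil1, the nucleotide exchange factor of BiP, had 267 and 150 counts in the libraries labelled knockout, against 536 and 370 in wild type, and the groups did not overlap (log2 fold change -1.09, SE 0.40, unadjusted p = 0.0287). P4hb, a disulfide isomerase and the most abundant of that list, had 342 and 426 CPM under the knockout label against 424 and 358 CPM in wild type, with overlap. ER-associated degradation genes gave 8 above 0 and 8 below (median -0.01), with 4 of 16 separated downward, against 12.7% of all genes, and 0 upward. Those 4 include Vcp, the most abundant, and Ube2g2, with log2 fold changes of -0.13 and -0.33. The eIF2 kinases and eIF2 subunits gave 8 above 0 and 4 below (median 0.05), 2 of 12 separated upward and 1 downward, with Eif2s3x at 0.06 and Ppp1r15b at 0.38. NRF2 targets, a separate oxidative stress programme, gave 5 and 5 among 10 tested (median 0.04), 1 separated upward, with Txnrd1 at -0.40 and Me1 at -0.50. Mitochondrial chaperones and proteases gave 6 and 3 (median 0.09), 3 of 9 separated upward against 11.7% of all genes, with Hspa9 at 0.18 and Hspd1 at 0.36.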

How the data were processed

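Per the labels, RNA of 4 cell samples was treated with DNase, fragmented, reverse transcribed from random primers and sequenced as 50 base reads. The authors deposited a table of raw read counts per gene per library; HISAT2, featureCounts and the build mm10 are named in the submitters' processing notes, with no versions or strand setting. Columns headed Control were taken as the wild-type samples. Of 24116 genes, 55 had no symbol in the annotation used (0.0334 to 0.0439% of the counts per library) and stayed out of the member lists. edgeR 4.0.16 (R 4.3.3) fitted genotype alone to the deposited counts after filterByExpr (14194 genes kept) and TMM scaling, with the quasi-likelihood F test and Benjamini-Hochberg adjustment over all genes. CPM are TMM-scaled, except the sums over marker lists, which use library totals; a prior count of 2 was added for log2 CPM, and SE is the size of the log2 fold change over the root of F. DESeq2 1.42.0 and limma 3.58.1 gave alternatives, and the model was tested on simulated counts. Intervals cover the spread of 2 libraries a group, and 3 counts, the limit that a count of 0 allows, are 0.157 to 0.159 CPM and cover counting error only. Members and companion lists were chosen with earlier results of these data known. Counts in every library were given for Atf4, Ddit3, Hspa5, Xbp1 and, per role group, the most abundant member and that with the lowest p; the remaining members named are from the list as a whole.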

Additional observations from a re-analysis of the deposited data

How the results depend on the processing

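Across 13 alternatives (scaling, filter, tool, replicate block, libraries left out), 0 members were called under each. With all 4 libraries kept, 1 member each had an unadjusted p under 0.05 with DESeq2, the likelihood ratio test and the replicate block. The quasi-likelihood test gave 0. This does not extend to the fits with 1 library left out, whose member counts at that cutoff differed and are not given. Over the whole table DESeq2 and the likelihood ratio test gave 333 and 357 genes at that cutoff, against 242 with the quasi-likelihood test. The whole table gave 2 calls with DESeq2 and 4 with the likelihood ratio test, and 0 to 91 with 1 library left out (91 without knockout 1, 8 without knockout 2). With 1 library left out, the ATF4 arm median ran from -0.14 to 0.24 and the ER arm median from -0.24 to 0.10. The difference of the arm medians, 0.14, ran from 0.10 to 0.27 with 1 library left out and was 0.21 with limma-voom. The cause was not tested. A lone library is assumed there to vary like the other group. With the replicate number as a block it was 0.18, genes at an unadjusted p under 0.05 were 735 against 242, and 0 were called; same-numbered libraries deviated together at r = 0.347 across 14194 genes, but 2 numbers do not show pairing. Single members changed sign in 14 cases without knockout 2, 11 without wild type 1, 7 without wild type 2 and 5 without knockout 1. Kdm2a kept its sign throughout, at 0.21 to 0.64 with a library left out. The members at low counts (Atf3, Slc7a11) are limited by depth, and Slc7a11 entered the test only with no filter.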

Other observations

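Other genes that ATF4 is known to act on shared with Ddit3 a low wild type 2 library; those named were picked out after their values were seen. Ddit4, an inhibitor of mTORC1, had 2302 and 3848 counts in the libraries labelled knockout and 4009 and 511 in wild type. Gdf15, a secreted stress factor, stood at 9.72 and 7.59 CPM under the knockout label, against 16.8 and 3.21 CPM in wild type, and Nupr1, a stress-induced chromatin protein, at 10.2 and 12.4 CPM under that label against 19.2 and 3.89 CPM in wild type. Among the 19 tested genes of that list, wild type 2 was the lowest library for 14, against 3190 of all 14194 genes tested. It was also the lowest for 16 of the 34 tested members and 10 of the 20 cytosolic tRNA synthetases. Outside the ATF4 targets it was the lowest for 4 of the 9 mitochondrial chaperones and proteases. The count was 4 of 20 for other ER folding and import genes and 2 of 16 for ER-associated degradation. It was 1 of 12 for the eIF2 genes and 1 of 10 for NRF2 targets.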
